A study of Mus musculus with 9 samples.

Results

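Ion channel genes of the voltage-gated, potassium, pacemaker, transient receptor potential, chloride and anoctamin families were examined in ChIP-seq libraries, labelled H3K9me3, of a mouse alpha-cell line and a mouse beta-cell line. The members were the windows of the deposited window table assigned to protein-coding genes whose names begin with Kcn, Cacn, Scn, Hcn, Trp (subfamilies a, c, m and v), Clcn or Ano, less a few genes that the rule sets aside. They came to 110 windows of 91 genes among 17641 windows in all. Trpc4ap met the name rule, although it encodes a protein that associates with a channel and no channel itself, and was kept as a member outside every family.

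The study compared alphaTC1, a glucagon-secreting cell line, and betaTC3, an insulin-secreting cell line, both derived from mouse islet tumours. The alphaTC1 cells had been transduced for 5 days with empty vector or with shRNA against Smndc1, a gene for a splicing factor, and the betaTC3 cells carried no treatment. Each of the 3 groups had 2 ChIP libraries and 1 input library, and the labels do not say whether the libraries came from separate cultures, so that the spread between them may be technical. A difference between betaTC3 and empty-vector alphaTC1 is therefore a difference of line and of transduction together, which cannot be told apart here. Each line stands for the cell type its labels give only as 1 established line, and the level of Smndc1 RNA was not analysed here.

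Channels of these families set the electrical behaviour of islet cells. Potassium channels bring the membrane back to rest after an action potential or hold it there through leak, calcium channels let in the calcium that triggers hormone release, and sodium channels, which alpha cells use in firing, carry the rapid upstroke. The pores are alpha subunits, and auxiliary subunits (the calcium channel alpha2delta, beta and gamma subunits, the Kcnip, Kcnab and Kcnmb families and the sodium channel beta subunits) alter how the pores open and where they sit. H3K9me3 is generally known as a mark of silent chromatin.

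Values are given as scaled reads, the deposited normalised signal of a window, in which 1 read was worth between 0.799 and 1.40 units depending on the library. The libraries held between 4530066 and 9924487 reads in windows, and 3 reads, the limit that a count of 0 allows, came to between 2.4 and 4.19 scaled reads. Windows were 401 bp wide. Of the 110 member windows, 78 lay within 1 kb of the start of the gene they were assigned to, 13 lay from 1 to 10 kb away and 19 lay over 10 kb away. Within 1 kb lay 70.9% of the member windows and 65.5% of all windows. The windows thus lay mostly at gene starts. Among genes of line identity the signal at the hormone genes was in the line that makes the hormone, and the factor genes varied. Gcg, which encodes glucagon, had 340.3 and 352 scaled reads in the empty-vector libraries and 0 and 0 in betaTC3. Ins1, which encodes insulin, had 1.32 and 0 in the empty-vector libraries and 354 and 314 in betaTC3, and Pdx1, a beta-cell transcription factor gene, had 5.3 and 0 and 1829 and 1840.0. Nkx6-1, of beta-cell identity, was high in both lines, with 1068 and 1129 in the empty-vector and 1223 and 1135 in the betaTC3 libraries (not called), and Irx2, of alpha cells, had 727 and 743 and 311 and 246. Among genes of other cell types, Sox9 of duct cells had 546 and 601 in the empty-vector libraries against 3.99 and 4.76 in betaTC3, Sst of delta cells had 2.65 and 0 against 107 and 93.3, and 8 of 12 such genes had no window. This placing is unlike what the label of the mark would lead one to look for, so a window level is reported below as a level in the libraries labelled H3K9me3 and is not read as silencing or as expression.

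Promoters of 6 members are shown, those of the 3 largest rises and the 3 largest falls in betaTC3 that had a RefSeq promoter entry, so that Kcnb2, the second-largest rise, is named only. Their CG content runs from 7 to 41. Each runs from 250 bases before to 50 bases after the gene start in RefSeq on GRCm38.p6, 5′ to 3′ on the gene's strand, with every CG in capitals. The first 3 belong to genes whose windows were higher in betaTC3. They lie at chr11:33993144-33993443 on the minus strand with 7 CG, at chr3:31902453-31902752 on the plus strand with 9 CG and at chr16:94997647-94997946 on the minus strand with 30 CG.
Kcnip1: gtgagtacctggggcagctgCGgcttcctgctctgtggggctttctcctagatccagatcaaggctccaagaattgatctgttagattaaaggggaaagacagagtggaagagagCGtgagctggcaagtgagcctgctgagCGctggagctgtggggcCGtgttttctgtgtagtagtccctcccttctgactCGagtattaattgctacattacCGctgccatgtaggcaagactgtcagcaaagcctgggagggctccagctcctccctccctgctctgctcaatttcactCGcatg
Kcnmb2: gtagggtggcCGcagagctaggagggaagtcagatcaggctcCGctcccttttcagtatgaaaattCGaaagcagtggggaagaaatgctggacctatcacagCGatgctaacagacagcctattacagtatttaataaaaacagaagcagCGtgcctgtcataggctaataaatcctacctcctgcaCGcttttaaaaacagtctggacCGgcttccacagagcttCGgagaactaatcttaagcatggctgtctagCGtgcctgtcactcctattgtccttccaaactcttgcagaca
Kcnj6: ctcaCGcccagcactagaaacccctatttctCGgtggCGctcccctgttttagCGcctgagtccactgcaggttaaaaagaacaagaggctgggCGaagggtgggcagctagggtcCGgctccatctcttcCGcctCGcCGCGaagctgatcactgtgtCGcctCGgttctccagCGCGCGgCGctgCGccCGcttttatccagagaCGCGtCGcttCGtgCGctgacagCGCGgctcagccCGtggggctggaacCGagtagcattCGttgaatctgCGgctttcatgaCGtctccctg
The other 3 belong to genes whose windows were lower in betaTC3. They lie at chr14:29721815-29722114 on the minus strand with 41 CG, at chr2:63184238-63184537 on the minus strand with 21 CG and at chr15:80286988-80287287 on the plus strand with 23 CG.
Cacna2d3: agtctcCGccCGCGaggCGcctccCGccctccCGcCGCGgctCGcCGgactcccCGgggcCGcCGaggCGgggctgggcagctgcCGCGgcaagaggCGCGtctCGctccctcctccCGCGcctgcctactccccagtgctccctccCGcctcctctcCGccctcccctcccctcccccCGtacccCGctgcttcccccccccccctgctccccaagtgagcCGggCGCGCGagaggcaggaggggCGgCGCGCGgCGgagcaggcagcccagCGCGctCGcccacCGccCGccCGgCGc
Kcnh7: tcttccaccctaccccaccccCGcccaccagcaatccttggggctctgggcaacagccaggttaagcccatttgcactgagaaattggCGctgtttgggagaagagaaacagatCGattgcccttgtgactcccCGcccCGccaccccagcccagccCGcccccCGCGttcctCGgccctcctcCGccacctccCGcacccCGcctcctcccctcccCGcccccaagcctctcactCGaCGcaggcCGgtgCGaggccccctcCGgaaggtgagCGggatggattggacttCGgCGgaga
Cacna1i: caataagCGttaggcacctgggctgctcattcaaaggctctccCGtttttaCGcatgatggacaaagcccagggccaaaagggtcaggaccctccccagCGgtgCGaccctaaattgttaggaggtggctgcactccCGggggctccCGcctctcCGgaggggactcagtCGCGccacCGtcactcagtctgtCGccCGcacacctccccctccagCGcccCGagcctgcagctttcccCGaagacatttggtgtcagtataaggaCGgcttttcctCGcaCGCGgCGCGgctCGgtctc

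Between the lines, channel gene windows differed in both directions and often by a wide margin. Of the 110 windows, 86 (78.2%) passed an adjusted p below 0.05 in the limma fit across all 17641 windows, in which 55.2% passed. In betaTC3 44 windows were higher (40%, against 22.1% of all windows) and 42 were lower (38.2%, against 33.2%). Changes past 3 on the log2 scale made up 30 higher windows (27.3%, against 11.8%) and 18 lower windows (16.4%, against 7.76%). Among the 78 windows within 1 kb of a start, 33 were higher and 28 lower, against 17.1% and 29.4% of all windows at that distance. The median log2 difference over the members was -0.02, against -0.13 over all windows, a shift that depends on the scaling. With libraries centred on their medians, 48 member windows were higher and 37 lower, and over all windows the split was 34.3% higher and 31.9% lower.

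The levels below are of windows sorted by the call itself, so the gap between the lines in each set follows from that sorting. The 44 windows that were higher in betaTC3 had a median group mean of 2.10 scaled reads with the empty vector, against 153 in betaTC3, and 24 of them had at most 3 reads in each empty-vector library, 13 with no read in either. The 42 windows that were lower had a median of 197 with the empty vector, against 17.2 in betaTC3, and 5 of them had at most 3 reads in each betaTC3 library. Near-empty windows were not counted over the whole table, so these counts are not read as a trait of channel genes. The 24 windows that were not called had medians of 259 and 258. The members as a set were low: their medians were 64.4 with the empty vector and 117 in betaTC3, where all windows had 318.9 and 285.7. Of the 86 called windows, 15 had a change smaller than 1 on the log2 scale. The call was lost when at least 1 of the 6 libraries was left out at 25 windows, those of Ano6, Ano9, Cacna2d1, Cacna2d3 (427 bp from the start), Cacnb1, Cacnb3, Cacng7, Clcn3, Kcna4, Kcnab2, Kcnd2 (11060 bp), Kcnh6 (start), Kcnip2, Kcnj12, Kcnk1 (start), Kcnk9, Kcnk10, Kcnn1 (-2169 bp), Kcnn3 (651 bp), Kcnq5, Kcnt2, Kcnu1, Scn9a (2552 bp), Trpc1 and Trpv3.

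**Figure D1:**
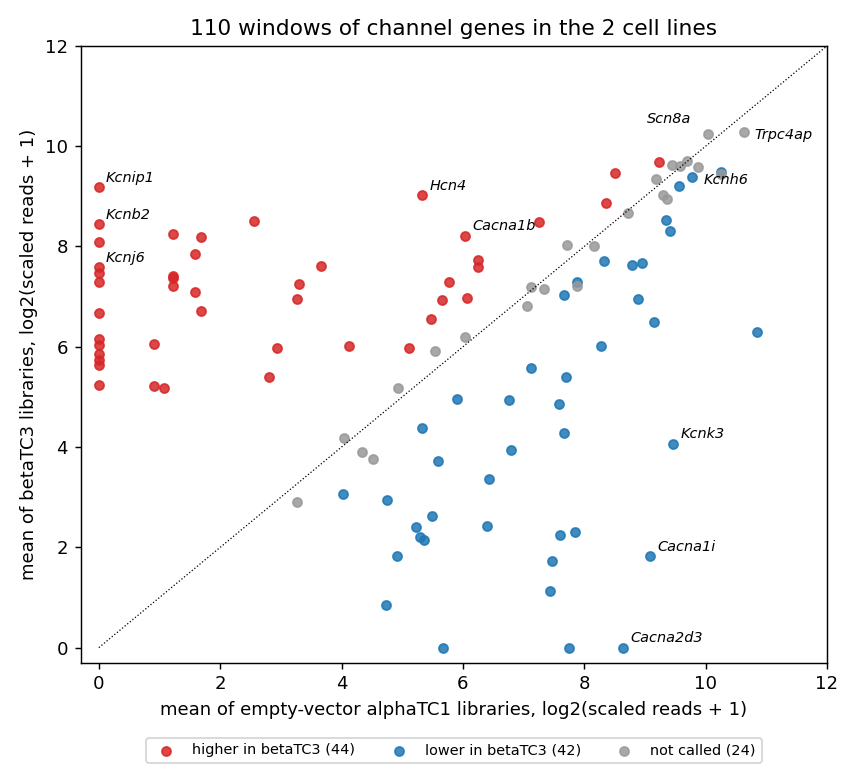
Mean log2(scaled reads + 1) of the 2 empty-vector alphaTC1 libraries (x axis) and of the 2 betaTC3 libraries (y axis) for the 110 channel gene windows, 1 point a window, with red for windows called higher in betaTC3 (44), blue for lower (42) and grey for not called (24), and the dotted line marking equal levels. A column of red points stands at 0 on the x axis, the 13 higher windows with no read in either empty-vector library, and the grey points lie along the dotted line.

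The pore-forming voltage-gated potassium channels made up the largest family, with 28 windows of 25 genes. Of these, 12 were higher in betaTC3, 11 were lower and 5 were not called, with a median log2 difference of -0.28. Over all windows 22.1% were higher and 33.2% lower, and every family count below is to be set beside these shares. Kcnb2, a delayed rectifier that repolarises the membrane, had 0 and 0 scaled reads in the empty-vector libraries, 0 and 0 in the knockdown libraries and 360.2 and 334 in betaTC3, at chr1:15287000-15287400, overlapping the gene start. The window was thus read in betaTC3 alone, at least 105-fold higher, with a log2 difference of 8.44 ± 0.27 (SE) and a limma adjusted p of 6.3e-06. Kcnd2, the pore of a rapidly inactivating A-type current, had 0 and 0, 2.39 and 0 and 196 and 116 scaled reads in the same order of groups. Its betaTC3 libraries were both high, and the difference was at least 47.1-fold (limma adjusted p = 9.23e-05). Kcnh5, of the ether-a-go-go subfamily, had 2.65 and 1.78 in the empty-vector, 5.97 and 4.19 in the knockdown and 288 and 297 in the betaTC3 libraries, a 132-fold difference. The Kcnc subfamily, known for rapid repolarisation, split. Kcnc1 had 2.65 and 0 in the empty-vector and 144 and 151 in the betaTC3 libraries, and Kcnc2 had 0 and 2.66 and 150.1 and 177, in both cases higher in betaTC3. For Kcnc2 the ratio of summed reads was 102, with an exact 95% counting interval of 34.6 to 496. Kcnc4 went the other way, with 584 and 546 against 83.1 and 96.1 (log2 -2.65 ± 0.17, limma adjusted p = 3.1e-05).

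Among the windows of this family that were lower in betaTC3, the erg-type gene Kcnh7 had the largest difference. Kcnh7 had 189 and 238 scaled reads in the empty-vector libraries, 196 and 196 in the knockdown libraries and 0 and 0 in betaTC3, at chr2:63184136-63184536, overlapping the gene start. Both alphaTC1 groups were high and both betaTC3 libraries empty, a difference of at least 81.4-fold (limma adjusted p = 6.3e-06). Kcnq3, a subunit of the channel of the slow M-current, which restrains excitability, was lower as well, with 144 and 133 against 50.3 and 43.8. The A-type genes Kcnd1 and Kcnd3 moved apart: Kcnd1 rose from 72.8 and 78.1 in the empty-vector libraries to 189 and 232 in betaTC3, and Kcnd3 fell from 39.7 and 39.9 to 3.99 and 2.85. The erg-type Kcnh2, described in islet cells, had 1337 and 1095 in the empty-vector and 926 and 458 in the betaTC3 libraries and was not called (limma adjusted p = 0.0799). Kcnh6, the third erg-type gene, had 874 and 885 against 664 and 669 at its start, a called log2 difference of -0.40 ± 0.13 on a chromosome whose well-covered windows had a median of -0.70.

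**Figure D2:**
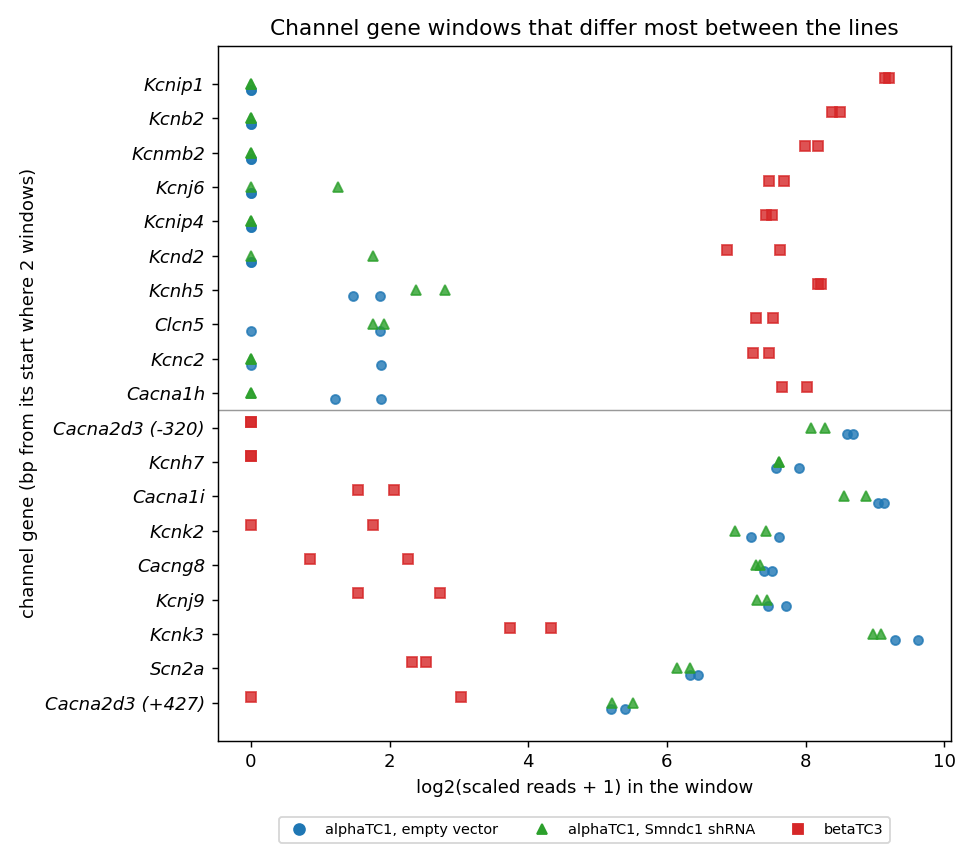
Level in each of the 6 ChIP libraries (x axis, log2(scaled reads + 1)) for the 10 windows within 1 kb of a gene start with the largest called rise in betaTC3 and 9 of the 10 with the largest fall (y axis, by gene), with 1 point a library and the colour and shape giving the group (empty vector, Smndc1 shRNA or betaTC3, 2 libraries each). Kcnip1, Kcnb2 and Kcnmb2 stand at 0 in all 4 alphaTC1 libraries and high in betaTC3. Cacna2d3 (-320 bp) and Kcnh7 stand at 0 in both betaTC3 libraries and high in the 4 alphaTC1 libraries. The other Cacna2d3 window (427 bp) had 7.19 and 0 scaled reads in betaTC3.

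The 2-pore leak channels, which set the resting potential, had 11 windows of 8 genes. Every one of these windows was called, 6 higher and 5 lower in betaTC3, as also with libraries centred on their medians. Over all windows 55.2% were called, 22.1% higher and 33.2% lower. The calls at Kcnk1 (start), Kcnk9 and Kcnk10 were among those lost when at least 1 library was left out. Kcnk3, an acid-sensitive leak channel described in alpha and beta cells, had 784 and 626 scaled reads in the empty-vector libraries, 504 and 545 in the knockdown libraries and 19.2 and 12.4 in betaTC3. Its betaTC3 libraries lay below all 4 alphaTC1 libraries, 44.7-fold lower than the empty vector (log2 -5.42 ± 0.23 SE, limma adjusted p = 8.7e-06), and its second window, 29355 bp into the gene, was lower too, with 99.3 and 119.8 against 14.4 and 14.3. Kcnk2, a stretch- and lipid-sensitive leak channel, had 147 and 195 in the empty-vector and 2.4 and 0 in the betaTC3 libraries. On summed reads this was a 135-fold difference, with an exact 95% counting interval of 45.8 to 658. Kcnk6 and Kcnk13 were among the higher windows, with 0 and 1.78 against 76.7 and 54.2 and 0 and 0 against 47.1 and 57.1. Kcnk10 was called at a log2 difference of 0.50 ± 0.17 only, on a chromosome whose median was 0.41.

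The inward rectifiers, which hold the membrane near the potassium potential, had 4 windows, 2 in each direction, of which Kcnj12 lost its call with libraries centred. Kcnj6 and Kcnj9 encode subunits of the same class of channel, opened by G proteins downstream of inhibitory receptors, and stood opposite each other. Kcnj6 had 0 and 0 scaled reads in the empty-vector libraries, 0 and 1.4 in the knockdown libraries and 176 and 205 in betaTC3, at least 57.4-fold higher (log2 7.58 ± 0.44 SE, limma adjusted p = 2.29e-05). Kcnj9 had 175 and 209.5, 156 and 173 and 5.59 and 1.9, and was 51.3-fold lower in betaTC3 (log2 -5.46 ± 0.39 SE, limma adjusted p = 5.34e-05). In neither gene did the lines overlap, and both knockdown groups lay at the empty-vector level.

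The calcium- and sodium-activated potassium channels had 8 windows of 5 genes, of which 6 were higher in betaTC3 and 2 lower (median log2 difference 3.83). Kcnt1 and Kcnn3 each gave more than 1 of the higher windows. The 6 higher windows stayed called under the other scalings, and the 2 lower windows, at Kcnn1 and Kcnu1, dropped to 1 with libraries centred and to 0 with DESeq2. Kcnt1, a sodium-activated channel gene, had 0 and 2.66 scaled reads in the empty-vector and 355 and 255 in the betaTC3 libraries at a window 14084 bp from its start, and 9.27 and 7.99 against 129 and 117 at the start itself. The larger signal of this gene in betaTC3 thus lay away from the annotated start. Kcnt2, its relative, had 3.97 and 0 against 138 and 134 (log2 5.94 ± 0.96 SE). The gene of a small-conductance calcium-activated channel, Kcnn3, had 14.6 and 8.88 in the empty-vector and 172 and 215 in the betaTC3 libraries 651 bp from the start and 0 and 0 against 50.3 and 47.6 upstream of it. Both windows were called.

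Among auxiliary subunits of potassium channels, 5 of 8 windows were higher in betaTC3, 2 were lower and 1 was not called. The largest difference of all members was here. Kcnip1, a calcium-binding partner of A-type channels, had 0 and 0 scaled reads in the empty-vector libraries, 0 and 0 in the knockdown libraries and 568 and 591 in betaTC3, at chr11:33992623-33993023, overlapping the gene start. Not a read fell in any alphaTC1 library, and the difference was at least 175-fold (log2 9.18 ± 0.26 SE, limma adjusted p = 6.3e-06). The betaTC3 peaks over it had a mean width of 3515 bp, and its promoter, shown above, held 7 CG. Kcnmb2, a subunit that makes the large-conductance calcium-activated channel inactivate, had 0 and 0, 0 and 0 and 255 and 289, and Kcnip4, from the Kcnip1 family, had 0 and 0, 0 and 0 and 171 and 183. Both were read in betaTC3 alone. The bounds were at least 82-fold for Kcnmb2 and at least 53.3-fold for Kcnip4. Kcnip3, a family member also known as a calcium-regulated repressor of transcription, was lower in betaTC3, with 441 and 441 in the empty-vector and 196 and 199.8 in the betaTC3 libraries (log2 -1.15 ± 0.12 SE), and Kcnip2 was higher, with 71.5 and 60.4 against 108 and 139.9.

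Calcium channel pores and auxiliary subunits each held windows of both directions, and the difference between these groups was not tested. Of the 9 pore windows, of 7 genes, 5 were higher in betaTC3, 1 was lower and 3 were not called (median log2 difference 2.17). Of the 10 auxiliary windows, of 8 genes, 2 were higher, 7 were lower and 1 was not called (median -1.35). These counts were the same with libraries centred, with edgeR and with DESeq2. Other settings changed the auxiliary calls. Both higher windows (Cacnb1 and Cacnb3) and those of Cacna2d1, Cacng7 and Cacna2d3 (427 bp) lost the call without at least 1 library. Cacna2d1 and Cacng7 also lost it without the trended prior and with the replicate block. The 3 low-voltage-activated (T-type) genes, which open near the resting potential, each behaved in a way of its own. Cacna1h had 1.32 and 2.66 scaled reads in the empty-vector libraries, 0 and 0 in the knockdown libraries and 258 and 202 in betaTC3, 115-fold higher (log2 6.30 ± 0.33 SE, limma adjusted p = 1.58e-05). Cacna1i had 559 and 527, 375 and 465 and 3.19 and 1.9, 213-fold lower (log2 -7.28 ± 0.24 SE, limma adjusted p = 6.39e-06). Cacna1g had 172 and 149, 204 and 238 and 156 and 127 and was not called (log2 -0.19 ± 0.18 SE, limma adjusted p = 0.41). The lines thus stood far apart and did not overlap at Cacna1h and Cacna1i, in opposite directions, with the knockdown libraries on the empty-vector side at both.

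The high-voltage-activated pores were higher in betaTC3 where called. Cacna1b, the N-type pore, had 78.1 and 50.6 in the empty-vector and 369.7 and 222 in the betaTC3 libraries (log2 2.17 ± 0.32 SE). Cacna1a, the P/Q-type pore whose calcium triggers exocytosis, had 0 and 0 against 54.3 and 59 at a window 18134 bp into the gene, with no window at its start. Cacna1e, the R-type pore, had 3 windows far from the start in the deposited table. The upstream one was higher in betaTC3 (0 and 1.78 against 36.7 and 36.2). The others, with 59.6 and 69.2 against 67.1 and 78 and 5.3 and 25.7 against 20.0 and 14.3, were not called. The one with 59.6 and 69.2, 137547 bp into the gene, lay 800 bp from another RefSeq start of Cacna1e.

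Among auxiliary subunits, Cacna2d3, an alpha2delta subunit that carries pores to the membrane, had 410.4 and 385 scaled reads in the empty-vector libraries, 269.9 and 309 in the knockdown libraries and 0 and 0 in betaTC3, at chr14:29722184-29722584, upstream of the gene. With no read in betaTC3 it lay at least 152-fold lower there (log2 -8.64 ± 0.21 SE, limma adjusted p = 5.41e-06), and a second window 427 bp from the start was also lower, with 41 and 35.5 against 7.19 and 0. Its relative Cacna2d1 was high in both lines, with 1292 and 1135 and 875 and 548, and was called lower at -0.80 ± 0.28 (log2 SE, limma adjusted p = 0.0473), a call lost without any 1 of the 6 libraries, under peaks with a mean width of 3868 bp in the empty-vector lists. The gamma-subunit gene Cacng8, also known for its work on glutamate receptors, had 168 and 183 against 0.799 and 3.81, 76.2-fold lower in betaTC3. The beta subunits, which bind the pore inside the cell, were not alike: Cacnb1 had 5.3 and 4.44 in the empty-vector and 379 and 351 in the betaTC3 libraries, higher in betaTC3, and Cacnb4 had 289.9 and 325 against 78.3 and 48.5, lower.

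Sodium channel pores had 6 windows of 3 genes, with 5 windows lower in betaTC3 and no window higher (median log2 difference -3.68). These counts were the same with libraries centred, with edgeR and with DESeq2. Over all windows 22.1% were higher and 33.2% lower. Windows of the same gene were counted separately. The lower windows were those of Scn2a and Scn9a and the one inside Scn8a. Scn2a and Scn9a both lie on chromosome 2, with start windows at 65620727 and 66634381, so the family count rests largely on 1 stretch of that chromosome. The Scn9a window 2552 bp from the start lost its call without 1 of the libraries. Scn2a and Scn9a, pores of rapid sodium currents, had windows at the start and away from it. Scn9a had 207 and 199 scaled reads in the empty-vector libraries, 130.2 and 177 in the knockdown libraries and 20.0 and 17.1 in betaTC3, 571 bp from the start (log2 -3.38 ± 0.22 SE, limma adjusted p = 3.45e-05). Scn2a had 86.1 and 79.9, 80.0 and 69.9 and 3.99 and 4.76 at the start, and higher levels 47910 bp into the gene, 218 and 238, 165 and 177 and 3.19 and 4.76, where RefSeq lists a further start of Scn2a within 1 kb. In each of these windows both betaTC3 libraries lay below all 4 alphaTC1 libraries. Scn8a was the exception, with 1043 and 1066 in the empty-vector and 1492 and 943 in the betaTC3 libraries at its start, not called (log2 0.17 ± 0.26 SE, limma adjusted p = 0.614). A window 38509 bp into the same gene had 41 and 59.5 in the empty-vector libraries and 0 and 0 in betaTC3, at least 19.1-fold lower. Among the sodium channel beta-subunit windows, the Scn3b start was higher in betaTC3 (50.3 and 56.8 against 158 and 153), and a distal window of Scn3b was not called.

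**Figure D3:**
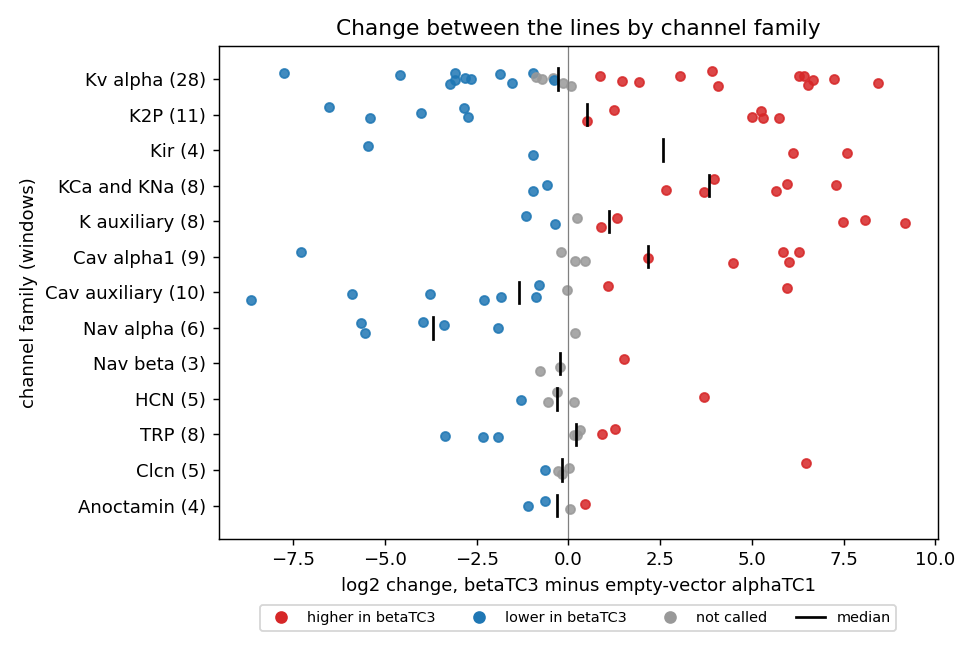
Log2 difference of betaTC3 minus empty-vector alphaTC1 (x axis, on the log2(scaled reads + 1) scale) for each channel gene window, 1 point a window, arranged by channel family (y axis), with red for higher, blue for lower and grey for not called windows and a line for the family median. Sodium channel pores lie to the left with 1 window near 0. Calcium- and sodium-activated potassium channels have 6 windows to the right and 2 to the left.

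The pacemaker channel genes, whose channels open on hyperpolarisation, had 5 windows. Hcn4 had 46.3 and 32 scaled reads in the empty-vector libraries, 25.1 and 26.6 in the knockdown libraries and 597 and 444 in betaTC3, 13.3-fold higher (log2 3.71 ± 0.26 SE, limma adjusted p = 4.49e-05). Hcn2 (544 and 614 against 753 and 553) and Hcn3 (639 and 618 against 608 and 428) were high in both lines and not called. Hcn2 did pass as higher with libraries centred, with edgeR and with DESeq2.

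The transient receptor potential channels, cation channels opened by calcium, lipids, heat or stretch, had 2 higher, 3 lower and 3 uncalled windows. Trpm4, a calcium-activated channel that depolarises islet cells, was lower in betaTC3, with 462 and 479 scaled reads in the empty-vector libraries, 305 and 389 in the knockdown libraries and 119.8 and 128 in betaTC3 (log2 -1.92 ± 0.16 SE, limma adjusted p = 9.34e-05). Trpc1 was higher, with 357 and 364 against 889 and 515. Trpv2, Trpv4 and Trpm7 were not called, although Trpv2 and Trpm7 passed as higher with libraries centred, with edgeR and with DESeq2. Chloride channels had 1 window higher, 1 lower and 3 not called, and anoctamins, calcium-activated chloride channels and lipid scramblases, had 1 higher, 2 lower and 1 not called. The endosomal exchanger gene Clcn5 was read in betaTC3, with 184 and 155, against 2.65 and 0 in the empty-vector libraries, a ratio of summed reads of 161 with an exact 95% counting interval of 44.2 to 1330.4. Clcn3, of the granule and endosome membrane, was high in both lines at its start (875 and 1005 against 735 and 808, not called). Trpc4ap had the highest level in betaTC3 of any member, 1402 and 1085, and 1582 and 1575 in the empty-vector libraries, and was not called.

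Genes described in islet cell electrophysiology did not stand on 1 side. Of 49 such channel genes listed for this comparison, 33 had a window. Their 45 windows were 15 higher, 15 lower and 15 not called, with a median log2 difference of -0.05. Over all windows 22.1% were higher and 33.2% lower, with a median of -0.13. A list of 60 channel partners and calcium-handling genes outside the members had 46 windows of 43 genes, of which 19 were higher in betaTC3, 5 were lower and 22 were not called (median 0.45). With libraries centred on their medians, 30 of these 46 were higher and 6 lower, against 34.3% and 31.9% of all windows. Ank2, which anchors channels to the membrane skeleton, had 0 and 1.78 scaled reads in the empty-vector and 363 and 359.7 in the betaTC3 libraries. Gem and Rem2, small GTPases that restrain calcium channels, had 9.27 and 8.88 against 491 and 488 and 5.3 and 7.1 against 145 and 174. Of the calcium pumps, Atp2a3 and Atp2b2 were called, in opposite directions, and Atp2a2 and Atp2b1 were not: Atp2a3, of the endoplasmic reticulum, rose from 1.32 and 2.66 to 268 and 266 in betaTC3, and Atp2b2, of the plasma membrane, fell from 993 and 994 to 28.8 and 22.8. The sodium leak channel gene Nalcn (204 and 249.5 against 345 and 284) was not called.

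Windows of 1 gene did not always move together. Of the 18 channel genes with more than 1 window, 6 had both windows lower in betaTC3, 3 had both higher (Kcnd2, Kcnn3 and Kcnt1) and 3 had 1 of each. These last were Kcnk1, Kcnk12 and Kcnn1. At Kcnk12, of a leak channel subfamily, the start had 180.1 and 202 scaled reads in the empty-vector and 24 and 32.4 in the betaTC3 libraries, and a window 52287 bp into the gene had 2.65 and 1.78 and 123 and 83.7. Both windows were called, and the order of the lines was opposite. At Kcnk1 the start was higher in betaTC3 (127 and 175 against 335 and 379) and a window at -34931 bp was lower (21.2 and 30.2 against 1.6 and 0), but the latter lay within 1 kb of a RefSeq start of another gene, Gm42056. Of the 32 member windows farther than 1 kb from the start in the deposited table, 6 lay within 1 kb of another RefSeq start of the same gene.

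The called peaks, made for each library separately against the input of its group, were set against the windows by presence. At 30 of the 110 member windows (27.3%, against 12.9% of all windows) both betaTC3 lists and neither empty-vector list held a peak. At 21 (19.1%, against 11.2%) both empty-vector lists and neither betaTC3 list did, and at 48 (43.6%, against 67.5%) both groups did. When only the stronger peaks of each list were used, those at or above its median −log10 q-value, these counts came to 7, 8 and 15. All 4 alphaTC1 lists held a peak at 72 windows. No member window had a peak in both empty-vector lists and in neither knockdown list. At 2 member windows, of Scn9a (2552 bp from the start) and Kcnj12, both knockdown lists and neither empty-vector list held one. The stronger-peak and knockdown-list counts were not made over all windows, so they are not read as a trait of channel genes.

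The promoters of members with a window at the start held more CG than promoters at large in either direction of change. Promoters of other genes with a window at the start were not set beside them. The difference is thus not shown to be particular to channel genes. Among 32851 RefSeq promoters of 300 bases on GRCm38.p6 the median was 7 CG (interquartile range 3 to 20). Of the 75 genes with a window within 1 kb, 52 were matched to a RefSeq promoter of the same gene with its start within 1 kb of the window. These promoters had a median of 21 CG when the window was higher in betaTC3 (24 promoters), 20.5 when lower (20) and 30.5 when not called (8). The 72 promoters of channel genes with neither a window nor a peak had a median of 6. Motifs were searched on both strands. TATAAA, the TATA box, was found in 8.33% of promoters of higher members, 5% of those of lower members and 13.6% of all promoters. The repressor element of neurons was searched as its parts CAGCACC, found in 4.17%, 10% and 7.14%, and GGACAGC, found in 12.5%, 5% and 6.56% of the same sets. None of the 8 promoters of uncalled members held any of the 3 motifs. A single promoter made 4.17% of the higher set and 5% of the lower set.

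**Figure D4:**
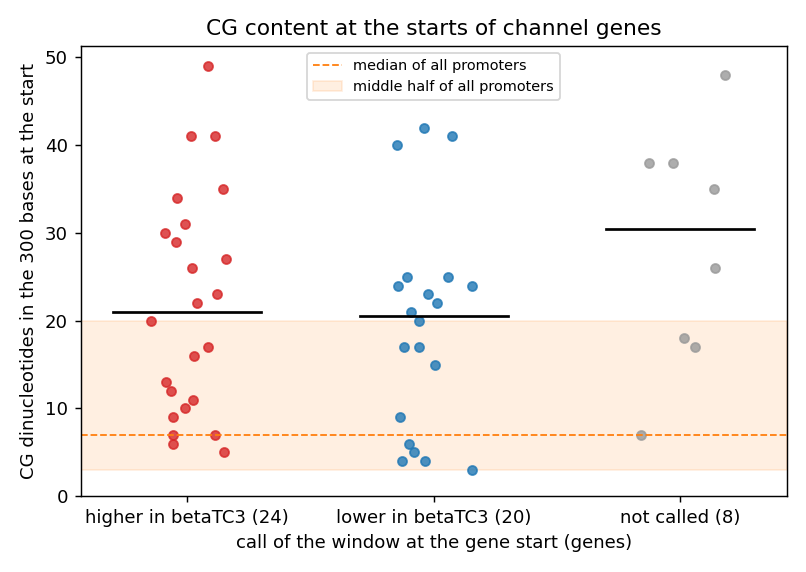
Number of CG in the 300-base RefSeq promoter (y axis) for channel gene promoters grouped by the call of the window at the gene start (x axis: higher or lower in betaTC3, or not called), 1 point a promoter, with a black bar at each group's median, and a dashed line and band for the median and interquartile range of all 32851 promoters. The higher and lower groups have medians of 21 and 20.5 and overlap through most of their range.

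In the comparison of knockdown with empty vector, which uses the same 2 empty-vector libraries as the comparison above, no channel gene window passed the limma test, and no window of the whole table did (0% of 17641 windows). DESeq2 called 10 windows of the whole table and edgeR none. At an unadjusted p below 0.05, 6 member windows were higher and 20 lower, against 2.23% and 32.7% of all windows. The median log2 difference of the members was -0.25, with 73 of 110 below 0, and that of all windows was -0.37, with 81.2% below 0. Both knockdown libraries lay below both empty-vector libraries at 53 member windows (48.2%, against 64.6% of all windows), and above both at 14 (12.7%, against 6.85%). With libraries centred on their medians, the members' median was 0.12, against 5.6e-05 for all windows. Member windows empty in every alphaTC1 library, such as those of Kcnb2 and Kcnip1, had a difference of 0 before centring. Such windows could not fall below the empty vector, and their part in these shares was not tested. The knockdown libraries held the fewest reads of the 6, 4530066 and 4800860, and the part of depth and scaling in this common shift was not tested. Leaving out knockdown replicate 2, where the spread of the lone knockdown library was taken from the other groups, gave 17 called members (3 higher and 14 lower) and 6281 called windows.

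Kcnh6, the erg-type gene whose start was also lower in betaTC3, had the smallest knockdown p of the members, rank 24 among all 17641 windows. It had 874 and 885 scaled reads in the empty-vector libraries, 388 and 442 in the knockdown libraries and 664 and 669 in betaTC3, at chr11:106008147-106008547, inside the gene. The knockdown libraries lay below the other 4 and did not overlap with them, with a log2 difference of -1.08 ± 0.13 (SE) from the empty vector, an unadjusted limma p of 9.38e-05 and an adjusted p of 0.0641. DESeq2 called it, with a log2 difference of -0.72 and an adjusted p of 0.000504, the single member it called. The second window of the gene, 6021 bp from the start, had 80.8 and 88.8 in the empty-vector and 57.3 and 44.7 in the knockdown libraries (limma adjusted p = 0.139).

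The other members with the smallest p values did not pass either. On the lower side, Kcnn1 had 226 and 241 in the empty-vector and 133 and 129 in the knockdown libraries at -2169 bp from its start (log2 -0.84 ± 0.14 SE, limma adjusted p = 0.1). The distal Kcnk12 window had 2.65 and 1.78 against 0 and 0, and Cacna1h had 1.32 and 2.66 against 0 and 0, so that in both all 4 libraries held at most 3 reads. On the higher side, Kcnj4, a strong inward rectifier, had 0 and 0 in the empty-vector and 1.19 and 2.8 in the knockdown libraries, against 85.4 and 54.2 in betaTC3. Kcnh5 had 2.65 and 1.78 against 5.97 and 4.19, Kcnj12 had 14.6 and 16 against 28.7 and 29.3 and Kcnab3, a cytoplasmic beta subunit, had 78.1 and 71.9 against 100.3 and 106 (log2 0.46 ± 0.17 SE, limma adjusted p = 0.129). The values at Kcnj4 and Kcnh5 rest on few reads, and next to the betaTC3 levels at the same windows they were small. None of the 13 higher windows that were empty in both empty-vector libraries came to more than 4.18 scaled reads in the mean of the knockdown libraries.

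**Figure D5:**
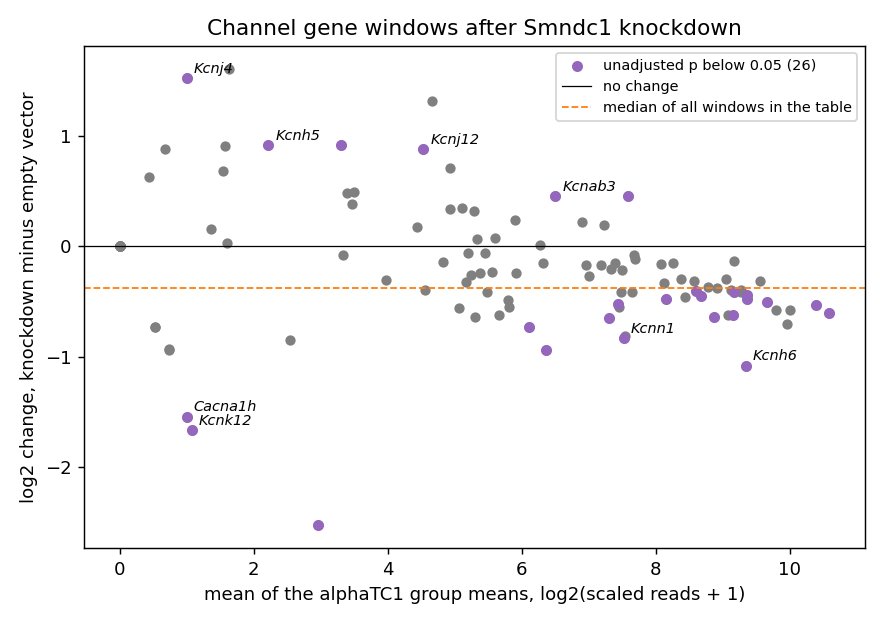
Log2 difference of Smndc1 knockdown minus empty vector (y axis, on the log2(scaled reads + 1) scale) against the mean of the 2 alphaTC1 group means (x axis, same scale) for the 110 channel gene windows, 1 point a window, with purple for an unadjusted p below 0.05 and a dashed line at the median of all windows. The differences run from -2.53 to 1.61, widest at low levels, and Kcnh6, at -1.08, lies lowest among the windows of high level.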

How the data were processed

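Chromatin of 6 ChIP libraries and 3 inputs was sequenced as 50 bp single reads, per the labels' protocols. Picard 2.19.2, Bowtie2 2.4.1 and MACS2 2.2.7.1, with the builds mm10 and GRCm38, are listed without their roles in the processing notes of the submitters. The window table as deposited by the authors gives a normalised signal per window and library, with the gene assigned to each window; the making of the factors is not given in the sources used. Every value was a whole multiple of 1 step per library (tolerance 0.001), so reads could be recovered. The deposited peak lists give, per library, a score, a fold enrichment, −log10 p-values and −log10 q-values for each peak; these are the authors' own values and served to describe and filter peaks only.

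limma 3.58.1 (R 4.3.3) was fitted to log2(scaled reads + 1) of all 6 libraries over 17641 windows, with a mean per group, a trended prior and Benjamini-Hochberg adjustment, and windows were called at an adjusted p below 0.05. On this scale the change of low windows is understated. Of the 17655 deposited entries, 14 windows appear with a second gene and were tested once. Folds are ratios of group means; where a group had no read, they are bounds against 3 reads per library, and where it had 1 to 3 reads, ratios of summed reads with exact 95% intervals, which cover counting error only. Reads recovered from the signal were tested with edgeR 4.0.16 and DESeq2 1.42.0 as alternatives. Replicate numbers did not pair the libraries (correlation of deviations -0.0079 between the alphaTC1 groups and 0.085 between empty vector and betaTC3). The script was checked on simulated data.

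Windows named in the text were the 10 largest called differences each way within 1 kb of a start, every window of the islet channel list, the 3 highest mean levels, the 4 smallest knockdown p values each way and distal windows over 10 kb away; others were added as examples of their families after their values were seen. The members and lists were chosen with earlier results of these data known. Some genes these rules name are not reported here. No genome sequence was used beyond RefSeq promoters.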

Additional observations from a re-analysis of the deposited data

How the results depend on the processing

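Of the 86 channel gene windows called between the lines, 61 stayed called in the same direction under every alternative run and without each library in turn, and 25 lost the call in at least 1 of them, among them Ano9, Cacna2d1, Cacnb1, Cacng7, Kcnh6 at its start, Kcnk10, Kcnt2, Trpc1 and Trpv3. Leaving out 1 library gave between 68 and 83 called members, between 51 and 58 of those within 1 kb, and between 6983 and 10641 called windows over the whole table. With the replicate number as a block, which the data do not support as a pairing, 79 members, 55 of those within 1 kb and 9152 windows were called between the lines and 0 after knockdown. Windows called after knockdown came to 10 with DESeq2, 163 without the trended prior, 31 with the compared groups alone and 335 with a pseudocount of 0.1, and to between 0 and 6281 without 1 library. Members called after knockdown came to 1 with DESeq2 (Kcnh6), 5 with a pseudocount of 0.1 (Kcnh6, Kcnj4, Cacna1h, Kcnk12 and Kcnn1) and between 0 and 17 without 1 library. The cause was not tested. Stronger peaks alone gave 7 member windows with peaks in both betaTC3 lists alone and 8 in both empty-vector lists alone, which were not counted over all windows. Differences between the lines that changed sign were not called in the first place. Without 1 library, the ranges were -0.58 to 1.51 for Cacna1e (77649 bp), -0.064 to 0.38 for Hcn2, -0.19 to 0.086 for Cacnb3 (2024 bp) and -0.16 to 0.50 for the start of Scn8a. Cacnb3 (2024 bp) came to 0.18 with DESeq2, 0.13 with libraries centred and 0.13 with edgeR, and with DESeq2 Cacna1g came to 0.047 and the distal window of Scn3b to 0.0024. With 2 libraries a group, and at most 3 reads in many low windows, calls among low levels rest on few reads and moved with the pseudocount.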

Other observations

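Of 175 channel genes that RefSeq lists under the same name rule, 91 (52%) had a window, against 49.7% of 21900 protein-coding genes. Coverage differed by family. In the table, 7 of 10 calcium channel pores and 25 of 39 voltage-gated potassium pores had a window, and 3 of 10 sodium channel pores, 4 of 14 inward rectifiers and 8 of 22 transient receptor potential channels did. Among the 84 genes without a window, 68 had a RefSeq start that could be set against the peak lists. At 5 of them, Cacna1c and Cacna1d (the L-type pores that carry much of the beta-cell calcium current), Clcn2, Clcn6 and Kcnma1 (the large-conductance calcium-activated channel), a peak lay within 1 kb in both empty-vector and both betaTC3 lists, so that these genes carried peaks and have no level in the window table. Cacnb2, a calcium channel beta subunit, had peaks in both betaTC3 lists and in no empty-vector list, and Trpc5 in both empty-vector lists and in no betaTC3 list. At 60 genes no list of these groups held a peak within 1 kb, among them Kcnk16, Kcnj3, Kcnj5 and Trpm2, which are described in islet cells.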
